A study of Homo sapiens with 9 samples.

Results

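The genes described here encode the 8 E2F transcription factors (E2F1 to E2F8) and the pocket proteins RBL1 (p107) and RBL2 (p130). They were chosen by symbol from the count table, with no threshold on their values but with earlier results of these data known. All 10 were found among the 23727 genes of the table and passed the filter on low counts. RNA sequencing was done on LN229, an established human glioblastoma cell line, in 3 groups of 3 libraries. One group was untreated (0 h), and the others had received 500 µM sodium formate for 8 h or for 24 h. All groups shared the same medium, DMEM with glucose at 17 mM, glutamine at 2 mM and fetal bovine serum at 10%. Formate is a carrier of single carbon units in folate metabolism. The untreated libraries were labelled 0 h only, so the effect of formate and that of time in culture cannot be told apart. Nothing in the labels says that replicates came from separate cultures, so the p-values measure the spread between these libraries, which may be technical. Libraries held between 22222298 and 25848242 counts, at which 3 counts correspond to at most 0.135 CPM, which are counts scaled to a common library size.

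E2F proteins bind DNA as dimers with a DP partner, or as pairs of E2F7 and E2F8 without one, and set the transcription of genes needed for S phase. E2F1, E2F2 and E2F3 are the activators. E2F4 and E2F5 act mainly as repressors together with RBL1 or RBL2, which recruit corepressors and, with the MuvB proteins, form the DREAM complex that silences cell cycle genes in quiescent cells. E2F6 represses through Polycomb proteins and lacks a pocket protein binding region, and E2F7 and E2F8 are repressors whose own genes are E2F targets. Phosphorylation of pocket proteins by cyclin-dependent kinases frees the E2F proteins, and several E2F genes are themselves activated by E2F.

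LN229 glial identity was checked on markers. Of 8 glial and glioblastoma markers, 7 reached 1 CPM in at least 1 library, with VIM (vimentin) at 3199 to 6284 CPM, while the astrocyte filament gene GFAP stayed at 0.425 CPM or less. Their sum was 6194 to 8549 CPM at 0 h, 6336 to 7214 at 8 h and 5286 to 6116 at 24 h. Most of it was VIM (mean 4903 CPM at 0 h and 3554 CPM at 24 h), while S100B went the other way (130.3 and 339.7 CPM), as did OLIG2 (8.31 and 11.9 CPM). Summed immune markers reached at most 0.619 CPM and epithelial ones 0.136 CPM. The endothelial sum was 0.308 to 0.613 CPM at 0 h, 0.318 to 0.656 at 8 h and 1.04 to 1.7 at 24 h, mostly VWF. The summed neuronal markers lay at 7.99 to 14.8 CPM in the 0 h and 8 h libraries and at 21.2 to 26.7 CPM at 24 h, mostly from SNAP25. The part of these shifts in the results below was not tested. In a bulk sample, fewer cells of a kind, such as cells in one phase of the cycle, and less RNA per cell cannot be told apart.

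The promoters of 4 members carried an exact match to a consensus E2F octamer, and these are shown because they include E2F2, the member that rose. RefSeq (GRCh38.p14) gave promoter windows for 8 of the 10 genes, each from 250 bases before to 50 after a transcription start, and E2F5 and E2F8 had none in the table used. The 100 bases before the start are printed 5′ to 3′ on the strand of the gene. Capitals mark the octamers TTTGGCGC, TTTCGCGC, TTTCCCGC and TTTGCCGC, or their reverse complements where the match lay on the opposite strand. E2F2 lies at chr1:23531234-23531333 (minus strand), E2F1 at chr20:33686386-33686485 (minus), RBL1 at chr20:37095998-37096097 (minus) and E2F3 at chr6:20401779-20401878 (plus).
E2F2: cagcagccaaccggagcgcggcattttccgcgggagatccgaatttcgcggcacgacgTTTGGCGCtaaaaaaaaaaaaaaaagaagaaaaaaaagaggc
E2F1: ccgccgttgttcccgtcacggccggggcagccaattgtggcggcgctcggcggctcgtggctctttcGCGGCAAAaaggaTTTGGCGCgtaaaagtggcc
RBL1: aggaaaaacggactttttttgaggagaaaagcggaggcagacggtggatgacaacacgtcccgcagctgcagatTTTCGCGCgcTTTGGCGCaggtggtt
E2F3: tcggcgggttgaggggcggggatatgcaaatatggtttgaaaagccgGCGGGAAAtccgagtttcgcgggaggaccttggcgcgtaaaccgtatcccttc

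The form TTTGGCGC stood 42 to 35 bases before the start in E2F2, 20 to 13 bases before it in E2F1 and 16 to 9 bases before it in RBL1. It occurred in 0.652% of the 35116 windows of all genes, counting both strands. RBL1 held TTTCGCGC immediately upstream, from 26 to 19 bases before the start (0.515% of all windows). The E2F1 window also had TTTGCCGC on the opposite strand, 33 to 26 bases before the start (0.607% of all windows), and that of E2F3 had TTTCCCGC on the opposite strand, 53 to 46 bases before it (1.63%). No form of the octamer was found in the windows of E2F4, E2F6, E2F7 or RBL2. Any form was present in 4 of 8 member genes, against 3.99% of the 27305 genes with a window and 6.67% of the 11151 tested genes with one. The NF-Y box CCAAT stood in the windows of E2F1, E2F3, E2F7 and RBL2 and in 34.6% of all windows. The cell cycle homology element TTTGAA, a site for MuvB complexes, was found in E2F3 and RBL2 and in 15.2% of all windows. A match here is a run of letters and not a measured binding site.

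**Figure D1:**
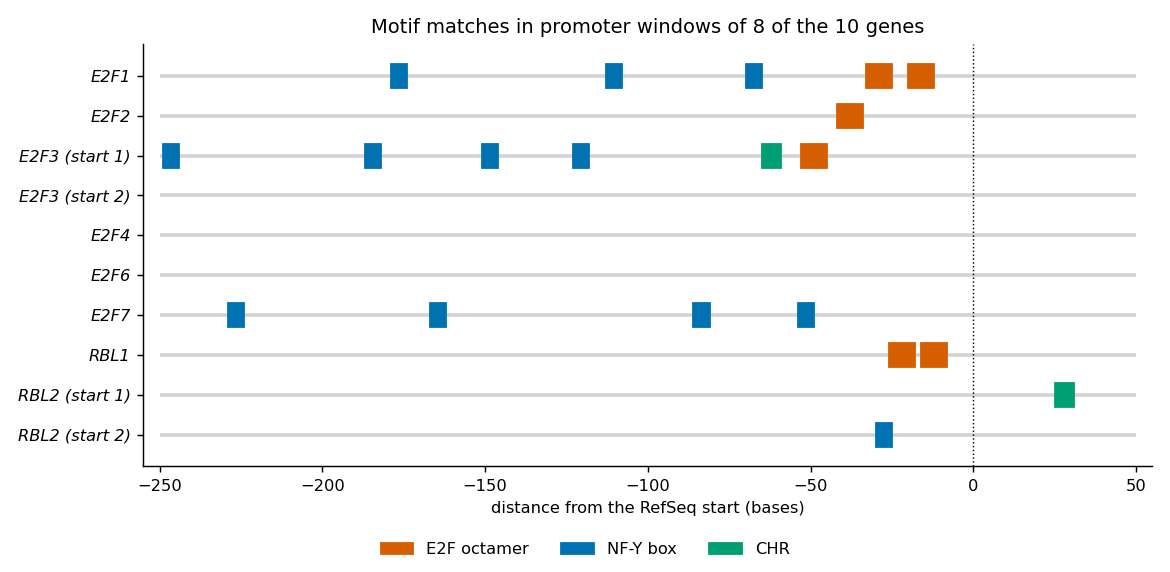
Positions of motif matches (boxes) in the RefSeq promoter windows of 8 genes, with the distance from the transcription start in bases on the x axis; E2F3 and RBL2 have 2 starts each. The E2F octamers (orange) of E2F1, E2F2, E2F3 and RBL1 all fall within 53 bases before the start, and NF-Y boxes are blue and CHR elements (TTTGAA) green.

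Levels between genes were compared as CPM per kilobase of merged exons in GENCODE 29. In untreated cells E2F1 stood highest at 46 ± 11.9 CPM per kilobase (SD, n = 3), followed by E2F4 at 26.2 ± 2.9, and the 3 libraries of neither overlapped those of its neighbours in the order. RBL1 came next at 11.1 ± 0.901 CPM per kilobase, above E2F8 at 9.53 ± 0.552 without overlap. E2F8 overlapped RBL2 (9.2 ± 2.6 CPM per kilobase), which overlapped E2F7 (8.81 ± 1.16). E2F3 at 6.15 ± 1.03 and E2F6 at 5.39 ± 0.544 CPM per kilobase overlapped as well. E2F2 ranked 9 at 4.49 ± 0.48 CPM per kilobase and E2F5 ranked 10 at 2.02 ± 0.465, each apart from its neighbours. After 24 h the same 2 genes led, and E2F2, at 7.12 ± 0.95 CPM per kilobase, stood above E2F6 (4.83 ± 0.58) without overlap and level with E2F3 (7.2 ± 0.332).

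**Figure D2:**
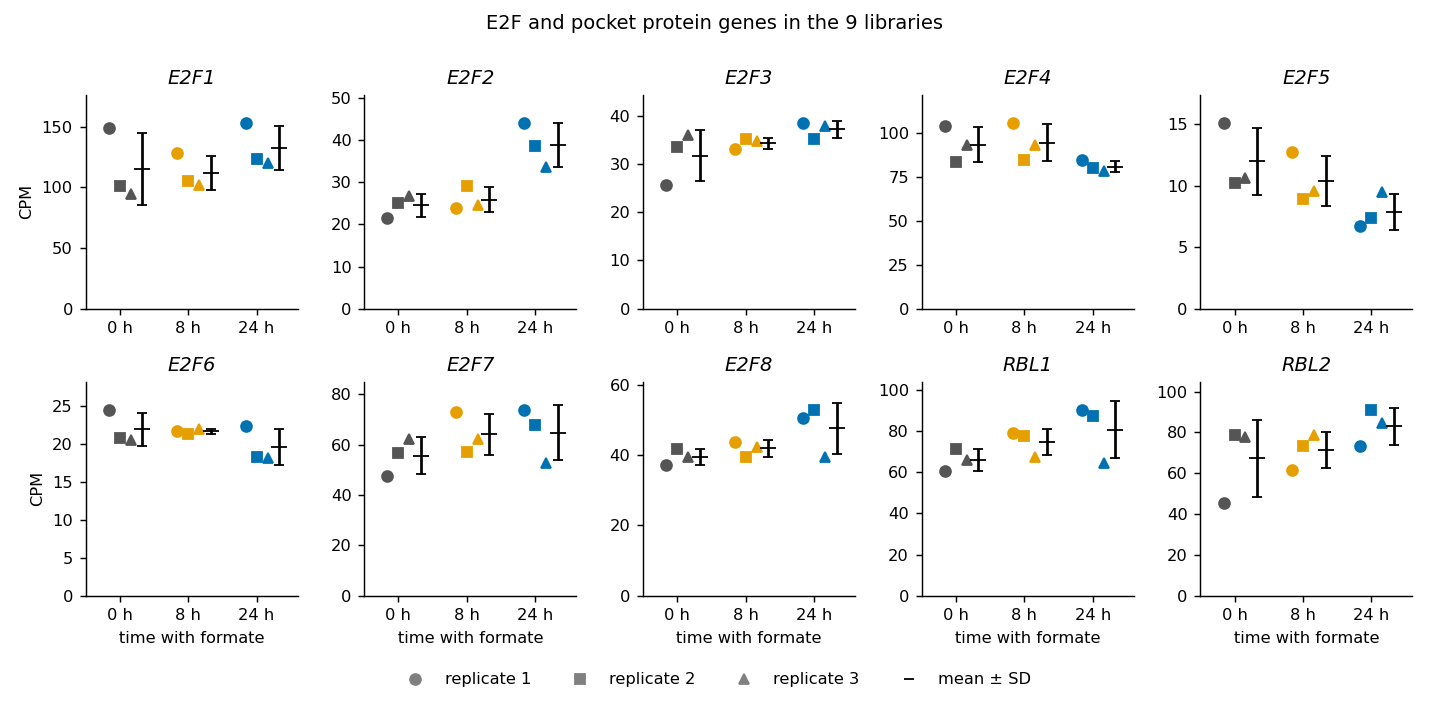
CPM of each gene in the 9 libraries (y axes from 0, one scale per gene), by time with formate on the x axis; symbols mark the replicate number and black bars the mean ± SD of 3 libraries. The E2F2 libraries at 24 h (33.7 to 44.1 CPM) lie above all others of that gene, and those of E2F5 (6.68 to 9.49 CPM) below all 3 untreated ones.

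After 24 h of formate, E2F2 rose and no other member passed the threshold in the fit of group means. E2F5 was 1.52-fold lower, with libraries apart from the untreated ones, and passed with the replicate number as a block or with DESeq2 but not in that fit. With edgeR's quasi-likelihood test and Benjamini-Hochberg adjustment over the 15273 genes tested, 1 of 10 members had an adjusted p under 0.05 at 24 h against 0 h, beside 4.25% of all genes. At an unadjusted p under 0.05 the counts were 4 of 10 members and 26.4% of all genes. Fitted values were higher in 7 members and lower in 3 (E2F4, E2F5 and E2F6), with a median log2 fold change of 0.23, against 0.01 over all genes, of which 50.9% were fitted higher. The untreated and 24 h libraries were free of overlap in 2 of 10 members (E2F2 and E2F5) and in 30.3% of all genes. At 8 h against 0 h no member and 0% of all genes passed with edgeR, and 0 of 10 members had an unadjusted p under 0.05, beside 0.517% of all genes. Neither the blocked fit nor DESeq2 called any gene there. No member was free of overlap at 8 h, as against 3.31% of all genes. At 24 h against 8 h, 1 of 10 members passed, beside 4.56% of all genes, and 3 of 10 did not overlap, beside 34.3%. These comparisons share libraries and are not independent of each other. Asked whether the 3 times differed in any way, edgeR's F test called E2F2 as the single member (adjusted p = 0.0309), beside 3.64% of all genes.

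Among the activators, E2F2 was read at 21.6, 25.1 and 26.8 CPM in untreated replicates 1, 2 and 3, at 23.9, 29.2 and 24.5 CPM after 8 h, and at 44.1, 38.7 and 33.7 CPM after 24 h. All 3 libraries at 24 h were above the 6 others. The means were 24.5 ± 2.62, 25.9 ± 2.88 and 38.9 ± 5.19 CPM (SD, n = 3 each). E2F2 thus rose 1.58-fold from 0 h to 24 h (log2 fold change 0.66, SE 0.13, 95% interval 0.38 to 0.95, adjusted p = 0.0272 with edgeR's quasi-likelihood test). It rose 1.5-fold from 8 h to 24 h (log2 0.59, SE 0.13, adjusted p = 0.0334, edgeR), and differed by 0.08 (95% interval −0.21 to 0.37) between 0 h and 8 h. Within same-numbered libraries the log2 ratio of 24 h to 0 h was 1.03, 0.62 and 0.33 for replicates 1, 2 and 3, higher in 3 of 3 pairs. The call at 24 h against 0 h was lost without replicate 2 of 24 h (log2 0.66, adjusted p = 0.129) or without replicate 3 of 24 h (0.75, adjusted p = 0.0979), with edgeR. In both of these fits no gene of the table passed, while 2550 and 2563 had an unadjusted p under 0.05. The call was also lost when only the 2 groups compared were fitted (log2 0.67, adjusted p = 0.0517, edgeR), and over the 14 alternatives in all the adjusted p ran from 0.000725 to 0.129. From 8 h to 24 h the call was lost without any 1 of 5 libraries (8 h replicates 1 and 3, 24 h replicates 1, 2 and 3), with adjusted p between 0.0609 and 0.181 (edgeR).

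E2F1, the activator best known for inducing both S phase and apoptosis genes, had 149, 101 and 94.6 CPM in untreated replicates 1 to 3. It had 128, 105 and 102 CPM at 8 h and 153, 123 and 120.3 CPM at 24 h. Replicate 1 was the highest library of each group, and the groups overlapped. The fitted difference at 24 h against 0 h was 0.20 on the log2 scale (SE 0.17, 95% interval −0.18 to 0.58, adjusted p = 0.47, edgeR). Against 8 h the log2 difference was 0.24 (adjusted p = 0.437, edgeR).

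E2F3, the third activator, was read at 25.7, 33.6 and 35.9 CPM at 0 h, 33, 35.1 and 34.7 CPM at 8 h, and 38.5, 35.2 and 37.8 CPM at 24 h. The 24 h libraries stood above those of 8 h without overlap but overlapped the untreated ones. Its difference at 24 h against 0 h was 0.23 (SE 0.12, 95% interval −0.04 to 0.49, adjusted p = 0.249, edgeR), and the log2 ratios by replicate number were 0.58, 0.07 and 0.07. The largest of these came from replicate 1, the lowest untreated library.

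Of the repressors that work with pocket proteins, E2F5 had the most negative fitted difference of the family. It was read at 15.1, 10.2 and 10.6 CPM in untreated replicates 1 to 3, at 12.7, 8.92 and 9.57 CPM after 8 h and at 6.68, 7.38 and 9.49 CPM after 24 h. The libraries at 24 h lay below all untreated ones but overlapped those of 8 h. The difference at 24 h against 0 h was −0.60 on the log2 scale (SE 0.20, 95% interval −1.05 to −0.16), with an adjusted p of 0.104 (edgeR). With the replicate number as a block it was −0.59 (adjusted p = 0.0316, edgeR), and 2 of 10 members then passed (E2F2 and E2F5), beside 24.1% of all genes. DESeq2 likewise gave 2 of 10 members, with an adjusted p of 0.0448 for E2F5, beside 10.8% of all genes. Pairs ran from −1.18 in replicate 1 through −0.46 in replicate 2 to −0.16 in replicate 3, so the size differed widely between replicates, and all 3 were lower. In the blocked fit the call was lost without untreated replicate 1 (adjusted p = 0.063), untreated replicate 2 (0.0689), 24 h replicate 1 (0.121) or 24 h replicate 2 (0.068), with edgeR. Without 24 h replicate 1 the blocked log2 difference was −0.32.

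Exons of E2F5 overlapped genes on the opposite strand over 18.6% of their length, and whether counting used the strand is not given in the sources used here. The opposite gene with counts, RBIS, was at 40.5 ± 10.3 CPM at 0 h and 36.3 ± 0.492 CPM at 24 h, a log2 difference of −0.16 (adjusted p = 0.509, edgeR).

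E2F4, the abundant repressor, had 104, 83.5 and 93.5 CPM at 0 h, 106, 85 and 93.3 CPM at 8 h, and 84.7, 80 and 78.6 CPM at 24 h. The 24 h libraries were below all 8 h libraries, and replicate 1 at 24 h overlapped the untreated range. At 24 h against 0 h the log2 difference was −0.21 (SE 0.11, 95% interval −0.45 to 0.03, adjusted p = 0.246, edgeR), with all 3 pairs lower. At 24 h against 8 h it was −0.22 (adjusted p = 0.255, edgeR).

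RBL1 and RBL2, the pocket protein genes among the members, were fitted higher at 24 h without passing in the fit of group means or with the block. With the block the adjusted p was 0.0746 for RBL1 and 0.0519 for RBL2 (edgeR). When each library in turn was left out of the blocked fit, RBL1 passed in 2 of 9 fits and RBL2 in 1 of 9. RBL1 was read at 60.4, 71.1 and 66 CPM at 0 h, 79.1, 77.6 and 67.3 CPM at 8 h, and 90.2, 87.1 and 64.6 CPM at 24 h. Replicates 1 and 2 at 24 h were above every other RBL1 library and replicate 3 fell within the untreated range. The log2 difference at 24 h against 0 h was 0.29 (SE 0.13, 95% interval 0.00 to 0.58, adjusted p = 0.186, edgeR).
RBL2 had 45.4, 78.9 and 77.7 CPM at 0 h, 61.6, 73.4 and 78.9 CPM at 8 h, and 73.3, 91 and 84.7 CPM at 24 h. Replicate 1 was the lowest library of each group. Its difference at 24 h against 0 h was 0.30 (SE 0.19, 95% interval −0.11 to 0.71, adjusted p = 0.32, edgeR), with log2 ratios of 0.69, 0.20 and 0.12 by replicate number. Opposite-strand genes covered 18.2% of the exon length of RBL2, and the one with counts that could be tested, AKTIP, was fitted lower (17.1 ± 4.23 CPM at 0 h, 12.4 ± 1.12 CPM at 24 h, log2 −0.46, adjusted p = 0.136, edgeR).

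E2F6, the Polycomb-linked repressor, varied least in the 8 h group (21.7, 21.3 and 22 CPM) and was read at 24.5, 20.8 and 20.5 CPM at 0 h and 22.4, 18.3 and 18.2 CPM at 24 h. These ranges overlapped. The log2 difference at 24 h against 0 h was −0.16 (SE 0.12, 95% interval −0.41 to 0.10, adjusted p = 0.403, edgeR), with −0.13, −0.18 and −0.17 in the 3 pairs.

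E2F7, an atypical repressor, had 47.7, 56.7 and 62.2 CPM at 0 h, 72.8, 57 and 62.2 CPM at 8 h, and 73.7, 67.8 and 52.8 CPM at 24 h. Its groups overlapped throughout, and the pairs at 24 h against 0 h differed in sign (0.63, 0.26 and −0.24). The fitted difference was 0.22 (SE 0.15, 95% interval −0.10 to 0.54, adjusted p = 0.343, edgeR). E2F8, its partner, had 37.1, 41.7 and 39.6 CPM at 0 h, 43.9, 39.4 and 42.5 CPM at 8 h, and 50.6, 52.9 and 39.4 CPM at 24 h. Replicates 1 and 2 at 24 h exceeded all other E2F8 libraries, and replicate 3 lay inside the untreated range. The E2F8 difference was 0.27 (SE 0.12, 95% interval 0.01 to 0.53, adjusted p = 0.176, edgeR).

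**Figure D3:**
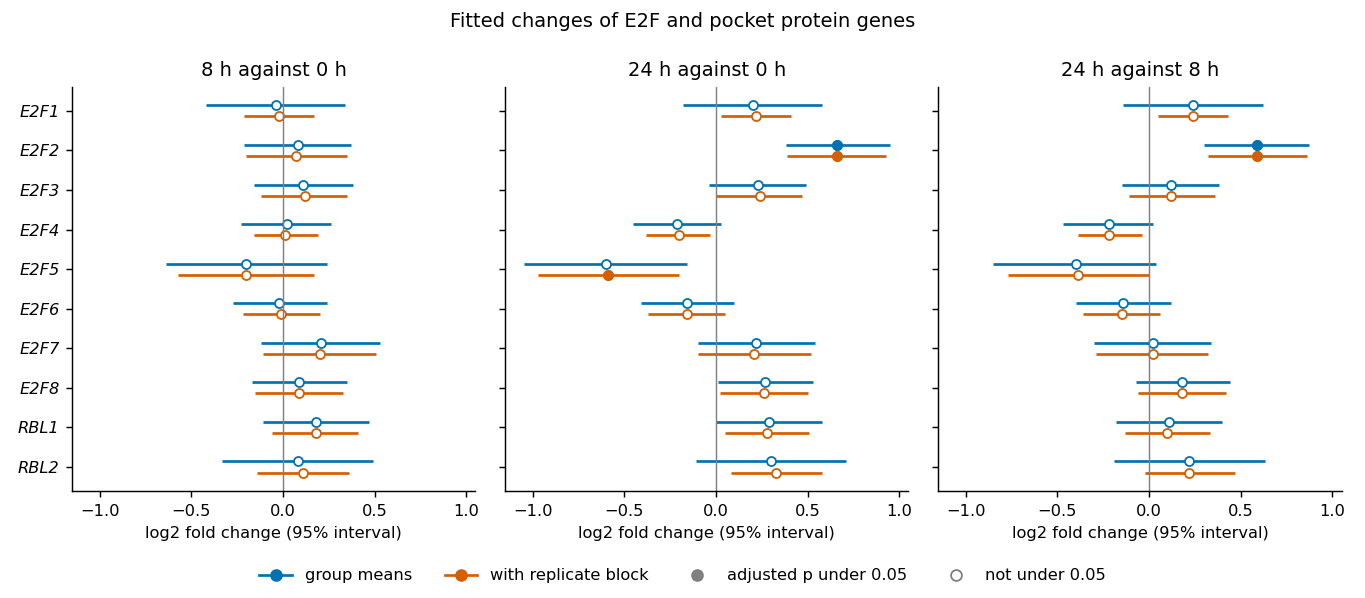
Fitted log2 fold changes (x axis, with 95% intervals) of the 10 genes for the 3 comparisons, from the fit of group means (blue) and with the replicate number as a block (orange); filled points have an adjusted p under 0.05 (edgeR). E2F2 is filled in both fits at 24 h against either earlier time, and E2F5 only in the blocked fit at 24 h against 0 h.

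Untreated replicate 1 was the highest or lowest library of its group for all 10 members, and for 85.3% of all genes tested. It was the highest of the 3 untreated libraries for 4 members (E2F1, E2F4, E2F5 and E2F6) and the lowest for the other 6. Replicate 1 was at an end of its group for 9 of 10 members at 8 h (76.5% of all genes) and for 9 of 10 at 24 h (78% of all genes). Without untreated replicate 1, E2F2 kept its call at 24 h against 0 h in both fits. In the blocked fit E2F1 then also passed, with a log2 difference of 0.30 (adjusted p = 0.00405, edgeR), and E2F5 did not.

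At 8 h the fitted log2 differences from 0 h ran from −0.20 (E2F5) to 0.21 (E2F7), and each member had an adjusted p of 0.9999 (edgeR). E2F7 and RBL1 were higher in 3 of 3 pairs and E2F5 was lower in 3 of 3. The widest interval, that of E2F5, ran from −0.64 to 0.24.

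The patterns of E2F2 and E2F5 over the 9 libraries were used to find their closest neighbours among 10897 genes of at least 5 CPM, as Pearson correlations of log2 CPM over libraries that share groups and replicate numbers. The nearest to E2F2 was FAM111B, a protease gene linked to DNA replication, with r = 0.982. It went from 46.5 ± 2.39 CPM to 70.5 ± 7.19 CPM between 0 h and 24 h (log2 0.60, adjusted p = 0.0199, edgeR). STK32B (r = 0.978, log2 0.23, adjusted p = 0.136) and CARMIL1 (r = 0.971, log2 0.32, adjusted p = 0.0767) came next, and neither passed with edgeR. Nearest to E2F5 were the histone pseudogene H1-9P (r = 0.983), THAP3 (0.976, with 34.8% of its exon length under opposite-strand genes) and EIF2B4 (0.969), a subunit gene of a translation initiation factor. Their log2 differences at 24 h against 0 h were −0.59, −0.42 and −0.28, and none passed (adjusted p of 0.109, 0.117 and 0.135, edgeR). Within the family, E2F2 and E2F5 had r = −0.902. They were picked as the members of largest rise and fall, and that choice favours a negative r. With the other members, the r of E2F2 ran from −0.733 (E2F4) to 0.726 (E2F8), and it was 0.305 with E2F1.

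The partners and regulators of these proteins were read at 24 h against 0 h, from lists of the pathway chosen with earlier results of these data known. TFDP1 and TFDP2 encode the DP proteins. TFDP2 went from 25.9 ± 0.352 to 32.8 ± 1.01 CPM without overlap (log2 0.34, adjusted p = 0.0558, and 0.0125 with the block, edgeR). TFDP1, at 153 ± 20.1 and 148 ± 11.3 CPM, had a log2 difference of −0.05. Of 7 genes of the MuvB core and its activators, none passed with edgeR (2 at an unadjusted p under 0.05), and with the block 2 were lower, near the shares of all genes (26.4% at an unadjusted p under 0.05 and 24.1% called with the block). FOXM1, the activator of mitotic genes, was at 589 ± 61.7 CPM at 0 h and 383 ± 83.8 CPM at 24 h (log2 −0.62, adjusted p = 0.0502, and 0.000908 with the block, edgeR). MYBL2, which joins MuvB in S phase, had a log2 difference of −0.44 (adjusted p = 0.238, and 0.00696 with the block, edgeR). The MuvB subunit and histone chaperone RBBP4 had one of 0.21 (adjusted p = 0.162).

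Among 11 corepressor genes none was called with edgeR, beside 4.25% of all genes, and 1 had an unadjusted p under 0.05, beside 26.4%. The median log2 difference was −0.04. With the block 1 was higher (ARID4A, log2 0.41, adjusted p = 0.199 without the block and 0.0143 with it, edgeR) and 1 lower (SUV39H1, −0.32, adjusted p = 0.225 and 0.0294), beside 24.1% of all genes called in either direction with the block. SIN3A, a scaffold of histone deacetylase complexes, had a difference of 0.32 (adjusted p = 0.131, edgeR). None of 13 genes of the E2F6 repressor complex was called with edgeR, beside 4.25% of all genes. At an unadjusted p under 0.05 there was 1 of 13, beside 26.4% of all genes, and the median was −0.05. With the block WDR5 alone was lower (log2 −0.29, adjusted p = 0.187 without the block and 0.0394 with it, edgeR), beside 24.1% of all genes. Both counts of 1 lie below these shares. RING1 and YAF2, Polycomb subunits, had differences of 0.19 and 0.25. Of 8 germline genes that E2F6 silences, 2 were tested, and STAG3 (−0.25, adjusted p = 0.219) and TDRKH (0.19, adjusted p = 0.325) did not pass with edgeR. STK31 and SMC1B stayed at or below 0.211 CPM.

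Of 8 tested genes for cyclins and kinases acting on pocket proteins, 1 was called higher and 1 lower, beside 4.25% of all genes called, and with the block 1 was higher and 2 lower, beside 24.1%. CCNE2, cyclin E2, rose from 30.1 ± 5.13 to 53.1 ± 5.99 CPM (log2 0.82, adjusted p = 0.0199, edgeR), and CCND1, cyclin D1, fell from 943 ± 137 to 563 ± 129 CPM (log2 −0.74, adjusted p = 0.0442, edgeR). CCNA2, cyclin A2, had a log2 difference of −0.38 (adjusted p = 0.096, and 0.013 with the block, edgeR). Among 8 genes of ubiquitin ligases and their pathway, SKP2, whose product binds E2F1, rose (50.4 ± 4.82 to 67.8 ± 1.4 CPM, log2 0.43, adjusted p = 0.0316, edgeR). CDC20 and UBE2C, of the anaphase-promoting complex pathway, fell by 0.90 and 0.92 on the log2 scale (adjusted p = 0.0267 and 0.0455, edgeR). These made 1 of the 8 called higher and 2 lower, beside 4.25% of all genes. With the block 4 of the 8 were lower and SKP2 was higher, beside 24.1%.

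Of 39 G1/S target genes of E2F, 4 rose and none fell, beside 4.25% of all genes called in either direction, and the median log2 difference was 0.18, against 0.01 over all genes. They were CCNE2, the replicative helicase subunit gene MCM6 (171 ± 12.8 to 254 ± 23.9 CPM, log2 0.58, adjusted p = 0.0271, edgeR), the uracil glycosylase gene UNG (44.4 ± 3.36 to 62.5 ± 5.66 CPM, log2 0.49, adjusted p = 0.0321) and DTL. DTL, which is outside the rule for naming and was added after its value was seen, is a substrate receptor of a ubiquitin ligase (log2 0.41, adjusted p = 0.0376, edgeR). With the block 16 were higher and 3 lower, beside 24.1% of all genes called in either direction. Of 31 G2/M target genes of the DREAM and MYBL2-FOXM1 complexes, 16 fell and none rose, with a median of −0.56, beside the same 4.25% of all genes. With the block 25 were lower, beside 24.1%. NEK2, a centrosomal kinase gene, fell from 157 ± 8.71 to 97.9 ± 10.4 CPM (log2 −0.68, adjusted p = 0.0167, edgeR). DLGAP5, a spindle gene, fell by 0.66 and CDC25C, the phosphatase gene of mitotic entry, by 0.65 on the log2 scale (adjusted p = 0.0199 each, edgeR). Of 10 apoptosis target genes of E2F1, 2 rose and none fell, beside 4.25% of all genes called in either direction. With the block 4 were higher and 1 lower, beside 24.1%. The lower one, PMAIP1, which encodes NOXA and was named after its value was seen, was at 50 ± 8.27 CPM at 0 h and 38.3 ± 3.84 CPM at 24 h (log2 −0.38, adjusted p = 0.163, and 0.0367 with the block, edgeR). BCL2L11, which encodes BIM, rose from 12.5 ± 4.35 to 32 ± 5.86 CPM (log2 1.35, adjusted p = 0.0282, edgeR) and TP73, which encodes p73, from 17.4 ± 0.302 to 28.5 ± 3.2 CPM (log2 0.71, adjusted p = 0.0167, edgeR). CASP8AP2 had a difference of 0.57 (adjusted p = 0.104, and 0.0137 with the block, edgeR).

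Without replicate 2 or replicate 3 of 24 h no gene of any list passed with edgeR. At an unadjusted p under 0.05 there were then 14 and 20 of the 39 G1/S genes and 25 and 21 of the 31 G2/M genes. Of all genes there were 2550 and 2563, where 15273 were tested with all libraries. Without untreated replicate 3 or 8 h replicate 3, 1 and 2 of the 39 G1/S genes passed, beside 418 and 284 of all genes. The G1/S count without untreated replicate 3 was thus near the share of all genes. Without untreated replicate 2 or 8 h replicate 3, 10 and 8 of the 31 G2/M genes passed, beside 574 and 284 of all genes. In the blocked fit, leaving out each library in turn left between 7 and 17 of the 39 G1/S genes called. Of the 31 G2/M genes, between 20 and 30 were called. With all libraries the blocked fit called 24.1% of all genes, and the low end of the G1/S range is not above that share. The range of counts over all genes in those blocked fits is given in the last section. At 8 h against 0 h none of the 10 lists had a called gene in either fit. At an unadjusted p under 0.05 the fit of group means gave none and the blocked fit 1, the G1/S gene GINS2 (edgeR), named after its value was seen. Some genes stand in more than 1 list, among them CCNE2, CDC20 and UBE2C. Genes on the opposite strand covered 37.1% of the exon length of CCNE2, 20.3% of SUV39H1, 18% of RBBP4, 15.9% of FOXM1, 13.6% of STAG3, 11.2% of WDR5, 10.9% of BCL2L11, 10.3% of CCND1 and of TDRKH, and under 10% of the other list genes named here.

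**Figure D4:**
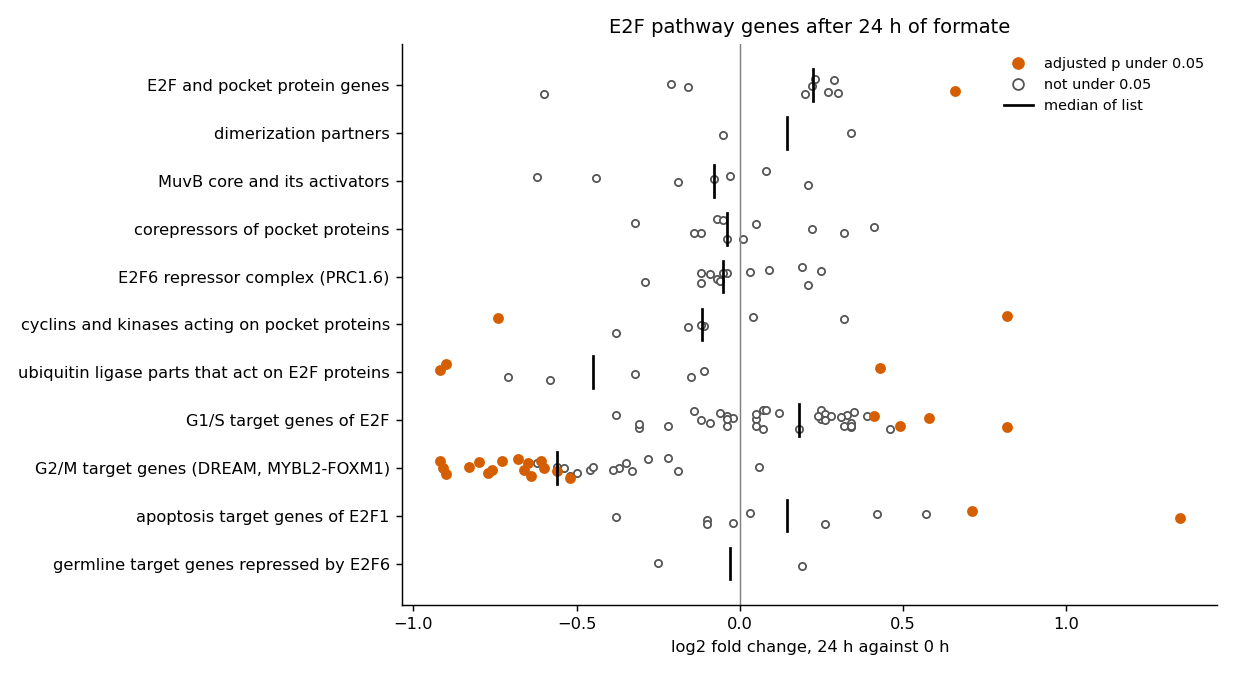
Fitted log2 fold changes at 24 h against 0 h (x axis) of the 10 E2F and pocket protein genes and of the tested genes of 10 pathway lists (rows); filled points have an adjusted p under 0.05 (edgeR) and black bars are medians. Of the 31 G2/M genes 30 lie below 0 (median −0.56), and the medians of the G1/S genes and of the E2F family are 0.18 and 0.23.

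Promoter letters of the target lists were read in the same windows as those of the family. An E2F octamer of any form was found in 61.8% of the 34 G1/S genes with a window and in 11.5% of the 26 G2/M genes with one. Among tested genes with a window the octamer share was 6.67%. TTTGAA was present in 73.1% of those G2/M genes and 5.88% of the G1/S genes, beside 14.1% of tested genes. CCAAT was present in 84.6% of the G2/M genes and 70.6% of the G1/S genes, beside 43.5%. The family itself had an octamer in 4 of 8 genes and TTTGAA in 2 of 8. The G1/S genes were collected as E2F targets and the G2/M genes as targets of the DREAM and MYBL2-FOXM1 complexes. The motif shares of both are therefore descriptions of the lists.

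Positions of the 10 genes are those of GENCODE 29 on GRCh38, the build named in the submitters' processing notes, and all 10 are protein coding. E2F1 lies at chr20:33675683-33686404 (minus strand, 7 merged exons), RBL1 on the same chromosome at chr20:36996349-37095995 (minus, 23) and E2F2 at chr1:23506430-23531220 (minus, 7). E2F3 is at chr6:20401906-20493715 (plus, 8), E2F4 at chr16:67192169-67198918 (plus, 6) and RBL2 at chr16:53433977-53491649 (plus, 26). E2F5 is at chr8:85177225-85217158 (plus, 9), E2F6 at chr2:11444375-11466177 (minus, 9), E2F7 at chr12:77021247-77065580 (minus, 14) and E2F8 at chr11:19224063-19241620 (minus, 14).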

How the data were processed

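Messenger RNA of 9 LN229 libraries was sequenced with a stranded kit, from RNA with an integrity number above 9, per the labels' protocols. The authors deposited 1 table of raw counts per Ensembl gene. STAR 2.7.4a, bcl2fastq 2.20.0.422 and GRCh38 are named in the submitters' processing notes. The counting program, annotation and strand setting are not given in the sources used here. The source label spells the line differently from the growth protocol, whose spelling is used.

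Counts were scaled with TMM, filtered with filterByExpr (15273 of 23727 genes kept) and fitted in R 4.3.3 by edgeR 4.0.16, with the 3 group means estimated from all libraries together. Quasi-likelihood tests were two-sided, adjusted by Benjamini-Hochberg over all tested genes, with a threshold of 0.05, and were tested on simulated data. SE and 95% intervals derive from each F value. CPM use TMM-scaled library sizes. Alternatives were RLE scaling, no filter, DESeq2 1.42.0, a replicate block, only the groups compared, and each library left out. Leaving libraries out of the blocked fit, and of the target list counts, was added after seeing the data.

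Same-numbered libraries of 0 h and 24 h deviated together from their group means (r = 0.367, 0.164 and 0.251 for numbers 1, 2 and 3), as did those of 0 h and 8 h (0.476, 0.432 and 0.414). Over all groups the mean r was 0.33 for the same number and −0.158 for different numbers. Replicate 3 of 0 h and replicate 2 of 24 h, however, had r = 0.27. The numbers, taken from the titles, were used as the block, with weaker ground for 0 h and 24 h than for 0 h and 8 h. For 8 h and 24 h, r was 0.423, 0.0367 and 0.404.

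The members, the 10 lists (139 entries) and the tests were chosen with earlier results of these data known. Named genes are the 10 members, 3 tested genes per list ranked by p at 24 h, and the 3 genes most alike in pattern to the members of largest rise and fall.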

Additional observations from a re-analysis of the deposited data

How the results depend on the processing

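At 24 h against 0 h, 649 genes passed in the fit of group means, 3687 with the replicate block, 1656 with DESeq2 and 124 when only the 2 groups compared were fitted. The counts of members were 1, 2, 2 and 0, and E2F2 had a log2 difference of 0.67 in the last fit. At 24 h against 8 h, 696 genes passed, 3130 with the replicate block, 1787 with only the 2 groups and 1458 with DESeq2. For any difference among the groups, 556 passed, 2986 with the replicate block and 1508 with DESeq2. The block changed no call of a member other than that of E2F5. In the check of the pairing, 8 h and 24 h libraries of numbers 1 and 3 deviated together (r = 0.423 and 0.404). Those of number 2 hardly did (r = 0.0367).

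Leaving out each library in turn left 0 to 899 genes and 0 to 1 members called at 24 h against 0 h, 0 to 2545 genes and 0 to 1 members at 24 h against 8 h, and 0 to 1276 genes and 0 to 1 members for any difference. With the replicate block, 2213 to 3816 genes and 1 to 4 members were called at 24 h against 0 h. The log2 difference of E2F2 lay between 0.56 and 0.75 at 24 h against 0 h without the block, between 0.49 and 0.80 with it, and between 0.48 and 0.68 at 24 h against 8 h without the block. Uncalled differences reached or crossed 0 without single libraries: E2F7 at 24 h against 0 h with the block (0.00 to 0.38), and, without the block, E2F7 at 24 h against 8 h (−0.09 to 0.13), and at 8 h against 0 h E2F1 (−0.15 to 0.19), E2F2 (−0.02 to 0.16), E2F3 (−0.02 to 0.22), E2F4 (−0.06 to 0.09), E2F5 (−0.36 to 0.00), E2F6 (−0.06 to 0.07) and RBL2 (−0.14 to 0.21). The cause was not tested. Of the 140 member differences at 24 h against 0 h under alternatives, 135 kept their direction and side of the threshold. RLE scaling and no filter changed no call of a member. At a biological coefficient of variation of 0.137, the widest 95% interval at 24 h against 0 h was that of E2F5 (−1.05 to −0.16), the member with the lowest level.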
